A study of Mus musculus with 10 samples.

Results

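The 8 genes described here encode the PGC-1 coactivators, the nuclear receptors they act with, and the respiratory gene factors downstream. They are Ppargc1a, Ppargc1b, Esrra, Esrrb, Esrrg, Ppara, Tfam and Nrf1, and they were taken by symbol, with every probe whose accession maps to one of them. This gave 16 probes of the 39429 on the array, and 8 genes of the 20144 that could be named. The genes, and the 2 sets of hearts they are described in below, were chosen by the measured log2 ratios of these same hearts, so the difference between the sets is a description and carries no test. The series compared ventricle RNA of male mice given aldosterone, the adrenal steroid that activates the mineralocorticoid receptor, with that of untreated mice. The titles of every heart, in both groups, carry the mark Ctrl, which they do not explain. Duration is 7 days in both groups, and each of the 5 hearts per group is labelled as a mouse of its own. The strain, age and dose are not given in the sources used here, and no genetic change is named. Each heart, in the red dye Cy5, was set on a 2-colour Agilent array against 1 reference in the green dye Cy3, RNA pooled from liver, brain, heart, kidney and spleen.

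PGC-1 coactivators bind no DNA themselves. They dock on nuclear receptors, chiefly the oestrogen-related receptors and PPARα, and on nuclear respiratory factor 1, and raise transcription of genes for mitochondrial respiration and fatty acid use. The heart, which draws most of its energy from fatty acids, is among the tissues where this pathway is strongest, and its activity is known to fall in failing mouse hearts. Nrf1 here is nuclear respiratory factor 1, not the stress response factor Nfe2l1 that shares the abbreviation.

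The promoters of 3 members are shown because they held a motif that was searched for and a probe of each member differed between the sets of hearts described below. The window of Esrra, whose probe differed too, held none and is not shown. Each sequence is from RefSeq on GRCm38.p6, read 5′ to 3′ on the gene's own strand, from 250 bases before to 50 bases after an annotated start. The windows are chr5:51567676-51567975 on the minus strand for Ppargc1a, chr15:85735526-85735825 on the plus strand for Ppara, and chr10:71237995-71238294 on the minus strand for Tfam. Capitals mark the motifs found.
Ppargc1a: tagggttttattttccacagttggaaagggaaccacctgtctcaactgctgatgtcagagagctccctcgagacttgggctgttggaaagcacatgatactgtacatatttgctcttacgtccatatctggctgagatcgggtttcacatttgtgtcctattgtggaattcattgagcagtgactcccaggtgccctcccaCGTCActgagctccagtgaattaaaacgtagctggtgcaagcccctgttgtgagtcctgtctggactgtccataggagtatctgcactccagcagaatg
Ppara: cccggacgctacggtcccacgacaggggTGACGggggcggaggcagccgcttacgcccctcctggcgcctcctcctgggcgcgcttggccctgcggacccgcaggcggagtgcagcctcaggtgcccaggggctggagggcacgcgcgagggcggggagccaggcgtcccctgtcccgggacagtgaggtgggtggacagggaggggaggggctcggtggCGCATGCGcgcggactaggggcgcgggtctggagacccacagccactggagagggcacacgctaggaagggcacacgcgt
Tfam: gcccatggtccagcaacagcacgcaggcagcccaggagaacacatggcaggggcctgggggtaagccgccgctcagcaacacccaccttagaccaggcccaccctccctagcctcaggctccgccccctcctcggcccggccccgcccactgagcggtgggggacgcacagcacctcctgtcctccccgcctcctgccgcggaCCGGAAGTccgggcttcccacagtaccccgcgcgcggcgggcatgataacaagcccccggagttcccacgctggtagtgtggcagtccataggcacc
In the Ppargc1a window the capitals CGTCA start at position -49 from the start and are the reverse complement of TGACG, the 5-base core of the cyclic AMP response element TGACGTCA. The full element is not in that window. The Ppara window holds TGACG at -222 and CGCATGCG, the core of the site of nuclear respiratory factor 1, at -30. The Tfam window holds CCGGAAGT, a site of the GABP factor, at -47. Ppargc1b had no window among the promoters used, so it was not searched. Over 12 windows of 7 members, searched on both strands, TGACG was in windows of Ppargc1a, Ppara and Esrrb and in 20.8% of all 32851 promoters. CGCATGCG was in 1 member window and 1.87% of promoters, and CCGGAAGT in 1 member window and 3.89% of promoters. No member window held TGACGTCA, the E-box CACGTG, the nuclear receptor core AGGTCA, the oestrogen-related receptor element TCAAGGTCA, which contains it, or the PPAR direct repeat of AGGTCA with 1 base between the copies. Those letters were in 1.79%, 7.15%, 16.3%, 0.423% and 0.0396% of promoters. TGACG, CCGGAAGT and the shortened core CGCATGCG were searched after the sequences had been read. A match is a string of letters in the window and not a measured binding site.

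Values are log2 ratios of heart over pooled reference after the dyes were normalized, so 1 means a normalized signal 2 times as high in the heart. Levels depend on that step and are not ratios of the raw signals. The Esrra probe, for example, had median raw signals of 15983 in Cy5 and 2781 in Cy3, with scanner values from 0.93 to 1.42. They come from 2 sources. The value table is the authors' deposited log2 ratio per probe for all 10 hearts. The scanner values were computed again from the spot intensities of 9 arrays, all but aldosterone 4, with background correction and an intensity-dependent (loess) normalization within each array. An array had 25374 to 27999 probes well above background in Cy5 (64.35% to 71.01%), and 26914 probes, well above background on at least 4 arrays, were tested. The heart signal of every one of the 16 member probes passed that limit on all 9 arrays, and none was saturated. Against the reference channel, Tfam probe A_52_P351785 was well above background on 6 arrays and Nrf1 probe A_52_P376269 on 3. The array of no treatment 1 had stray local backgrounds of up to 11739.5 units, against at most 712 on the others. Replacing them by the array's median took its scanner value from Ppargc1a probe A_51_P279038 to 0.097, against 0.25 as deposited, and that of Ppargc1a probe A_55_P2011702 to 0.70, against 0.29. All 8 cardiomyocyte markers were measured, and their mean log2 ratio lay between 1.23 and 1.69 in every heart. The reference itself held heart RNA, and the means of the endothelial markers (1.24 to 1.40) and brown fat markers (1.43 to 1.76) were similar. The level of such a mean therefore does not identify the tissue.

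The first comparison asked whether 7 days of aldosterone changed the RNA of these genes. None of the 16 member probes passed the test in either source, and none had an unadjusted p under 0.05 (limma, two-sided, Benjamini-Hochberg over 26914 probes, threshold 0.05). Over all probes 0.0% passed in the scanner values and 0.13% in the value table, and 6.11% and 7.98% had an unadjusted p under 0.05. The value table's 35 calls over all probes ranged from 2 to 57 when 1 heart was left out. For no member probe did all aldosterone hearts lie on one side of all no treatment hearts, against 2.02% of probes in the scanner values and 1.91% in the value table. The median difference, aldosterone minus no treatment, was 0.043 over the 16 probes in the scanner values and 0.056 in the value table, and 0.0036 and -0.0026 over all probes. The number of arrays limits the precision, and the intervals below show which differences remain possible. In whole tissue, fewer cells of a type and less RNA per cell cannot be told apart.

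Ppargc1a encodes PGC-1α, the coactivator that cold, fasting and exercise induce. In the value table its probe A_51_P279038 had 1.36, 1.30, 0.45, 1.06 and 0.31 in aldosterone hearts 1 to 5, against 0.35, 1.10, 0.28, 0.58 and 1.20 in no treatment hearts 1 to 5. Each group holds both high and low hearts, and the groups overlap over nearly their whole range. The mean was 0.90 ± 0.49 with aldosterone and 0.70 ± 0.43 without treatment (SD, n = 5 each). The difference was 0.20 (SE 0.26; limma adjusted p = 0.905), with a 95% interval from -0.39 to 0.78. In the scanner values it was 0.16 (SE 0.28; limma adjusted p = 0.999), from -0.46 to 0.78. As folds, the intervals run from 0.763 to 1.72 in the value table and from 0.729 to 1.71 in the scanner values, so the data leave room for sizeable differences of either sign. The second probe, A_55_P2011702, had 2.36, 2.25, 1.497, 1.91 and 1.26 in aldosterone hearts 1 to 5, against 1.32, 1.84, 1.36, 1.56 and 2.13 in no treatment hearts 1 to 5. The same 5 hearts were low by both probes.

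Ppargc1b encodes PGC-1β, the close relative that supports basal mitochondrial gene expression. Its probe had 1.82, 1.67, 1.04, 1.65 and 1.00 in aldosterone hearts 1 to 5, against 1.05, 1.62, 1.04, 1.58 and 1.56 in no treatment hearts 1 to 5. The low hearts are aldosterone 3 and 5 and no treatment 1 and 3, and the groups overlap. The difference was 0.068 (SE 0.20; limma adjusted p = 0.961), with an interval from -0.38 to 0.51.

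**Figure D1:**
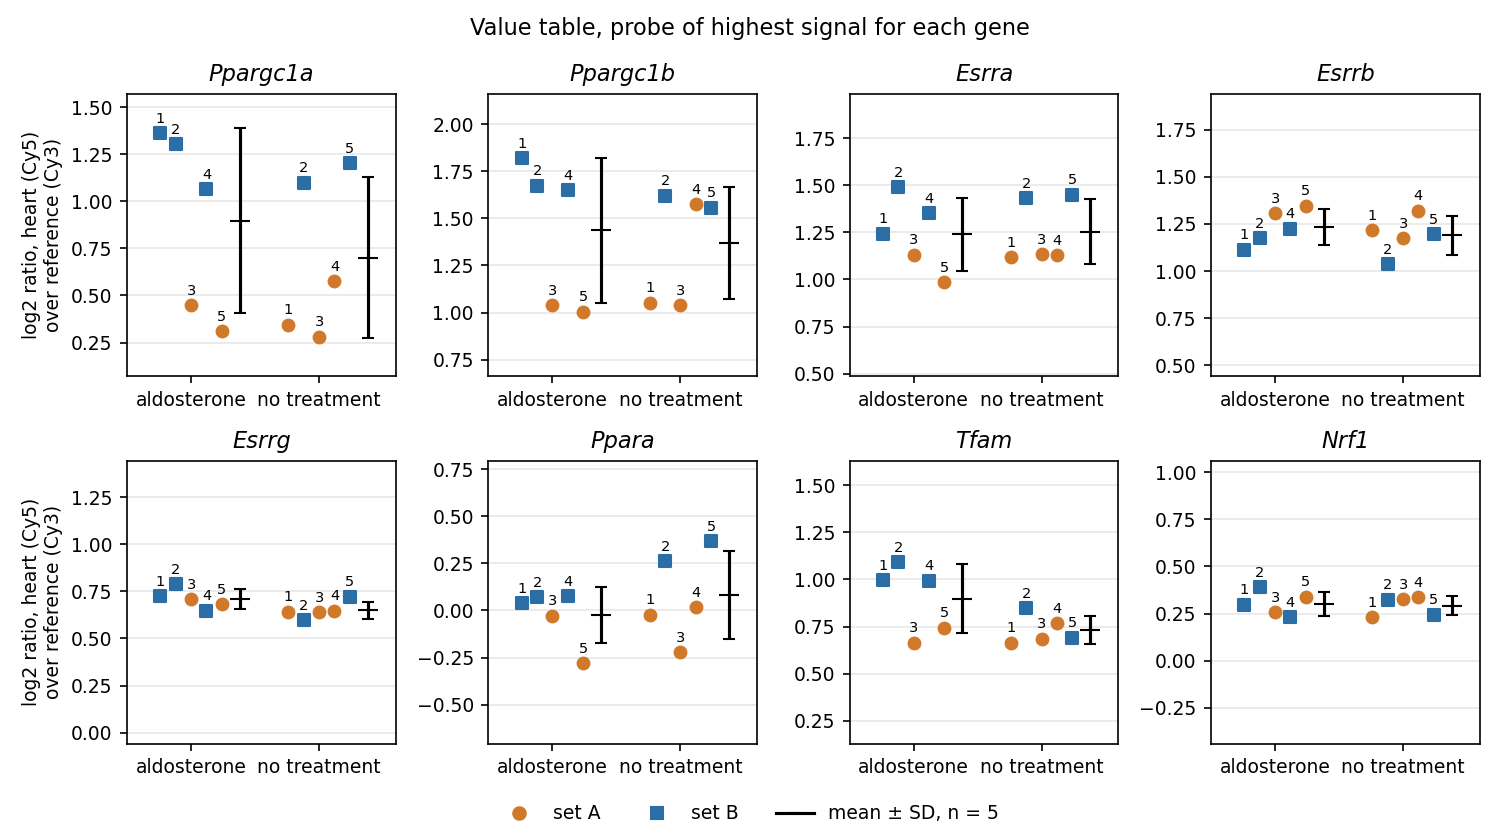
Log2 ratio of heart over pooled reference in the value table (vertical axis) for the probe of highest signal of each gene, by group. Each point is a heart with its number, circles are set A and squares set B, and the bar is the mean ± SD (n = 5 each). For Ppargc1a the aldosterone mean is 0.90 and the no treatment mean 0.70, with the high and low hearts of both groups far apart.

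The oestrogen-related receptors ERRα, ERRβ and ERRγ are orphan receptors, active without a known natural hormone, and are main partners of PGC-1 in heart muscle. Esrra, for ERRα, had 1.24, 1.49, 1.13, 1.35 and 0.98 in aldosterone hearts 1 to 5, against 1.12, 1.43, 1.13, 1.13 and 1.45 in no treatment hearts 1 to 5. The range of the aldosterone hearts includes that of the no treatment hearts. The difference was -0.013 (SE 0.11), with an interval from -0.26 to 0.24. Esrrb, for ERRβ, had 1.11, 1.17, 1.31, 1.22 and 1.35 in aldosterone hearts 1 to 5, against 1.22, 1.04, 1.18, 1.32 and 1.20 in no treatment hearts 1 to 5. Its difference was 0.044 (SE 0.070), and the groups overlap. Esrrg, for ERRγ, had 0.73, 0.79, 0.71, 0.65 and 0.68 in aldosterone hearts 1 to 5 by probe A_65_P19089, against 0.64, 0.60, 0.64, 0.65 and 0.72 in no treatment hearts 1 to 5. Its SD over the 10 hearts of the value table, 0.057, is at percentile 2.13 of all probes tested, while in the scanner values its SD was 0.081, beside a median of 0.12 over all probes. Its difference was 0.062 (SE 0.051) with an interval from -0.051 to 0.17, or from 0.965-fold to 1.13-fold. In the scanner values the interval of that probe ran from 0.935-fold to 1.14-fold. The second Esrrg probe, A_55_P2006499, differed by 0.079 (SE 0.078). Its interval ran from 0.937-fold to 1.19-fold in the value table and from 0.965-fold to 1.18-fold in the scanner values.

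Ppara encodes PPARα, the fatty acid sensor that turns on genes of fatty acid oxidation and works as a dimer with an RXR receptor. Its probe A_55_P2055854 had 0.038, 0.069, -0.028, 0.077 and -0.28 in aldosterone hearts 1 to 5, against -0.023, 0.26, -0.22, 0.018 and 0.37 in no treatment hearts 1 to 5. The highest hearts are no treatment 5 and 2, and the lowest are aldosterone 5 and no treatment 3. The difference was -0.11 (SE 0.12; limma adjusted p = 0.885), with an interval from -0.37 to 0.16. Probes A_55_P2071601 and A_55_P2071596 differed by -0.12 (SE 0.13) and -0.064 (SE 0.11).

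Nrf1 and Tfam stand downstream. Nuclear respiratory factor 1 switches on nuclear genes of the respiratory chain, and TFAM, itself a known target of it, packs and transcribes mitochondrial DNA. Nrf1 probe A_55_P2000077 had 0.30, 0.39, 0.26, 0.23 and 0.34 in aldosterone hearts 1 to 5, against 0.23, 0.32, 0.33, 0.34 and 0.24 in no treatment hearts 1 to 5. Its SD over the 10 hearts of the value table, 0.054, is at percentile 1.75 of all probes, and in the scanner values it was 0.097. Its difference was 0.011 (SE 0.053). The 95% interval was -0.11 to 0.13. The other Nrf1 probes, A_51_P201468 and A_52_P376269, had median Cy5 signals of 100.5 and 85 units over a local background of 57 to 59. They differed by -0.15 (SE 0.11) and 0.050 (SE 0.16), and their centred profiles over the 10 hearts differed from that of the brighter probe by 0.190 and 0.238 as a root mean square. Tfam probe A_51_P493720 had 1.00, 1.09, 0.66, 0.99 and 0.74 in aldosterone hearts 1 to 5, against 0.67, 0.85, 0.69, 0.77 and 0.69 in no treatment hearts 1 to 5. Aldosterone 1, 2 and 4 lie above every no treatment heart, aldosterone 5 lies among them, and aldosterone 3 is just below the lowest of them. The mean was 0.90 ± 0.18 with aldosterone and 0.73 ± 0.076 without treatment (SD, n = 5 each). The difference was 0.17 (SE 0.090; limma unadjusted p = 0.0939, adjusted p = 0.70), the smallest unadjusted p among the 16 probes in the value table. Tfam probe A_55_P2026445 differed by 0.16 (SE 0.090), and in the scanner values the 2 probes differed by 0.15 (SE 0.095) and 0.093 (SE 0.089).

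**Figure D2:**
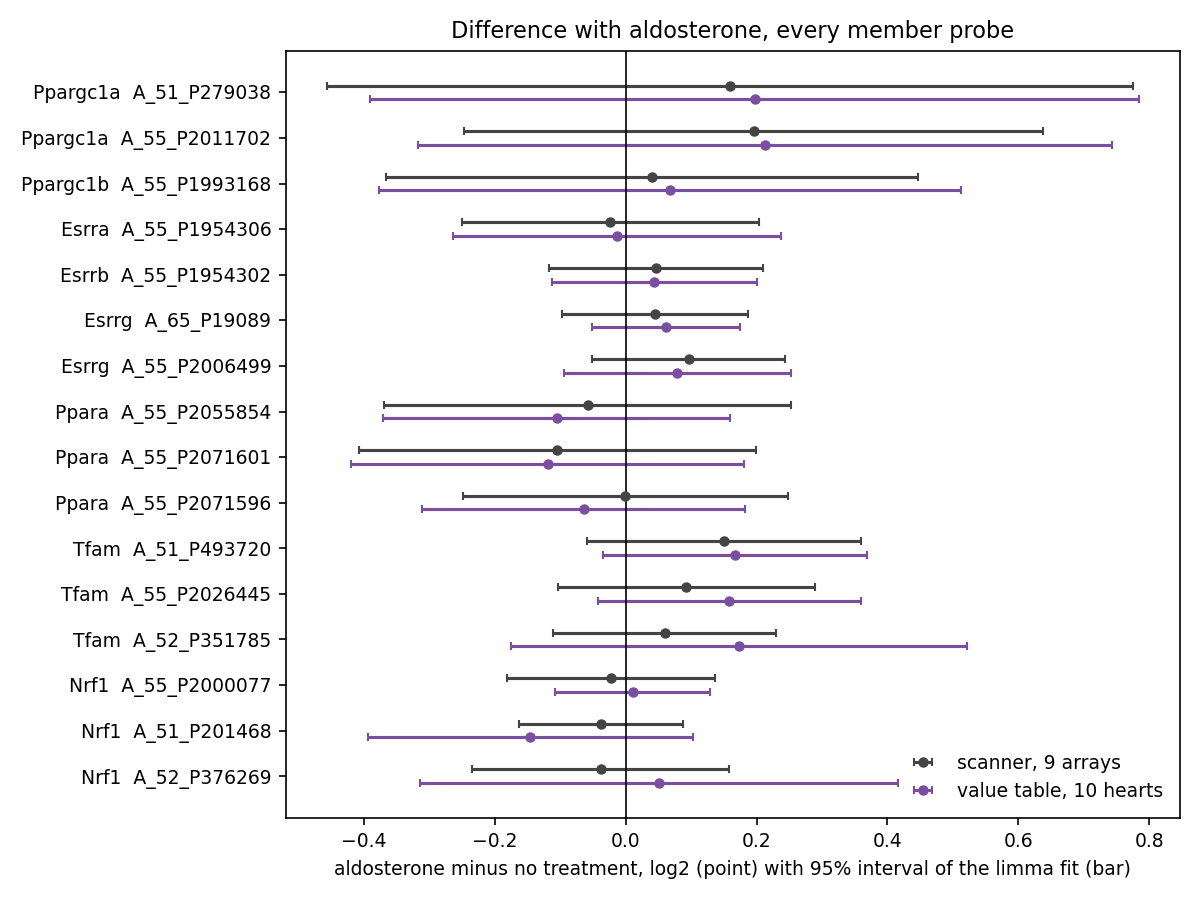
Aldosterone minus no treatment on the log2 scale (horizontal axis) for each of the 16 member probes, with the 95% interval of the limma fit, in the scanner values (9 arrays) and in the value table (10 hearts). Every interval includes 0, and the widest are those of Ppargc1a and Ppargc1b.

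The arrays came on 4 slides, each scanned as 1 unit and each holding both groups. Within slides 1 to 4, aldosterone minus no treatment for Ppargc1a probe A_51_P279038 was 0.62, 1.07, -0.084 and -0.95. For Ppargc1b it was 0.49, 0.60, -0.46 and -0.49, and for Tfam probe A_51_P493720 it was 0.18, 0.44, -0.085 and 0.083. The sign differed between slides for all 16 member probes, as 0 of them kept 1 sign on all 4 slides. Slides 2 and 4 each set a heart of one set against a heart of the other, and slide 3 alone compared hearts of 1 set.

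The hearts were also set side by side across the treatment. Set A holds aldosterone 3 and 5 and no treatment 1, 3 and 4. Set B holds aldosterone 1, 2 and 4 and no treatment 2 and 5. In the value table both probes of Ppargc1a, the probe of Esrra, and 1 of 3 probes each of Ppara and Tfam were lower in set A without overlap. Ppargc1b had a lower median in set A with a small overlap, and the other probes of Ppara and Tfam and all of Esrrb, Esrrg and Nrf1 overlapped. The sets were drawn from these values, so nothing is read from the differences beyond their size. Of the 16 member probes, 5 did not overlap between the sets in the value table, all 5 lower in set A, where 4.6% of all probes were lower in set A without overlap and 11.6% did not overlap in either direction. In the scanner values it was 7 of 16, all lower in set A, beside 5.97% and 11.2% of all probes. With each array centred on its median in place of the intensity-dependent normalization, 2 member probes did not overlap, both of Ppargc1a. The share of all probes without overlap is not given for that setting, so nothing is read from this count.

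For Ppargc1a probe A_51_P279038 the value table gave 0.28 to 0.58 in set A with a median of 0.35, and 1.06 to 1.36 in set B with a median of 1.20. No heart lies in the gap of 0.49 between the sets. Set A stood at 0.553-fold of set B in the value table and at 0.503-fold in the scanner values. The size of this difference is at percentile 97.7 of all probes in the value table and 99.6 in the scanner values. Probe A_55_P2011702 had 1.26 to 1.56 in set A and 1.84 to 2.36 in set B, at 0.585-fold. The centred profiles of the 2 probes differed by 0.114 as a root mean square over the 10 hearts.

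Ppargc1b had 1.00 to 1.58 in set A and 1.56 to 1.82 in set B. The overlap comes from no treatment 4 alone, at 1.58, while the other 4 hearts of set A lay between 1.00 and 1.05. In the scanner values no treatment 4 was at 0.93 and the lowest heart of set B, no treatment 5, at 0.95, so the sets there are apart by 0.016. The difference of the medians, set A minus set B, was -0.61 in the value table and -0.55 in the scanner values.

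Esrra had 0.98 to 1.13 in set A and 1.24 to 1.49 in set B in the value table, and 0.93 to 1.11 in set A and 1.21 to 1.42 in set B in the scanner values. It did not overlap in either source, and the fold of the medians was 0.811 and 0.829. For Ppara probe A_55_P2055854 the ranges were -0.28 to 0.018 in set A and 0.038 to 0.37 in set B, so the sets are apart by 0.020 only. The scanner values put 0.073 between them. Probe A_55_P2071596 did not overlap in the scanner values and overlapped in the value table, and A_55_P2071601 overlapped in both. For Tfam probe A_55_P2026445 the ranges were 0.80 to 0.94 in set A and 0.96 to 1.25 in set B, whereas A_51_P493720 overlapped through no treatment 5, at 0.69. The dim Tfam probe A_52_P351785 overlapped widely.

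Esrrb ran the other way, at 1.18 to 1.35 in set A and 1.04 to 1.22 in set B, with overlap. Esrrg probe A_65_P19089 had 0.64 to 0.71 in set A and 0.60 to 0.79 in set B, and Nrf1 probe A_55_P2000077 had 0.23 to 0.34 in set A and 0.23 to 0.39 in set B. The ranges of the sets overlap for both. Within the oestrogen-related family the centred profiles of Esrra and Esrrb differed by 0.241 as a root mean square, those of Esrra and Esrrg by 0.163 and those of Esrrb and Esrrg by 0.101. The distance between Esrrg and Nrf1 was 0.071, but both vary little over the hearts, so it shows no shared profile.

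**Figure D3:**
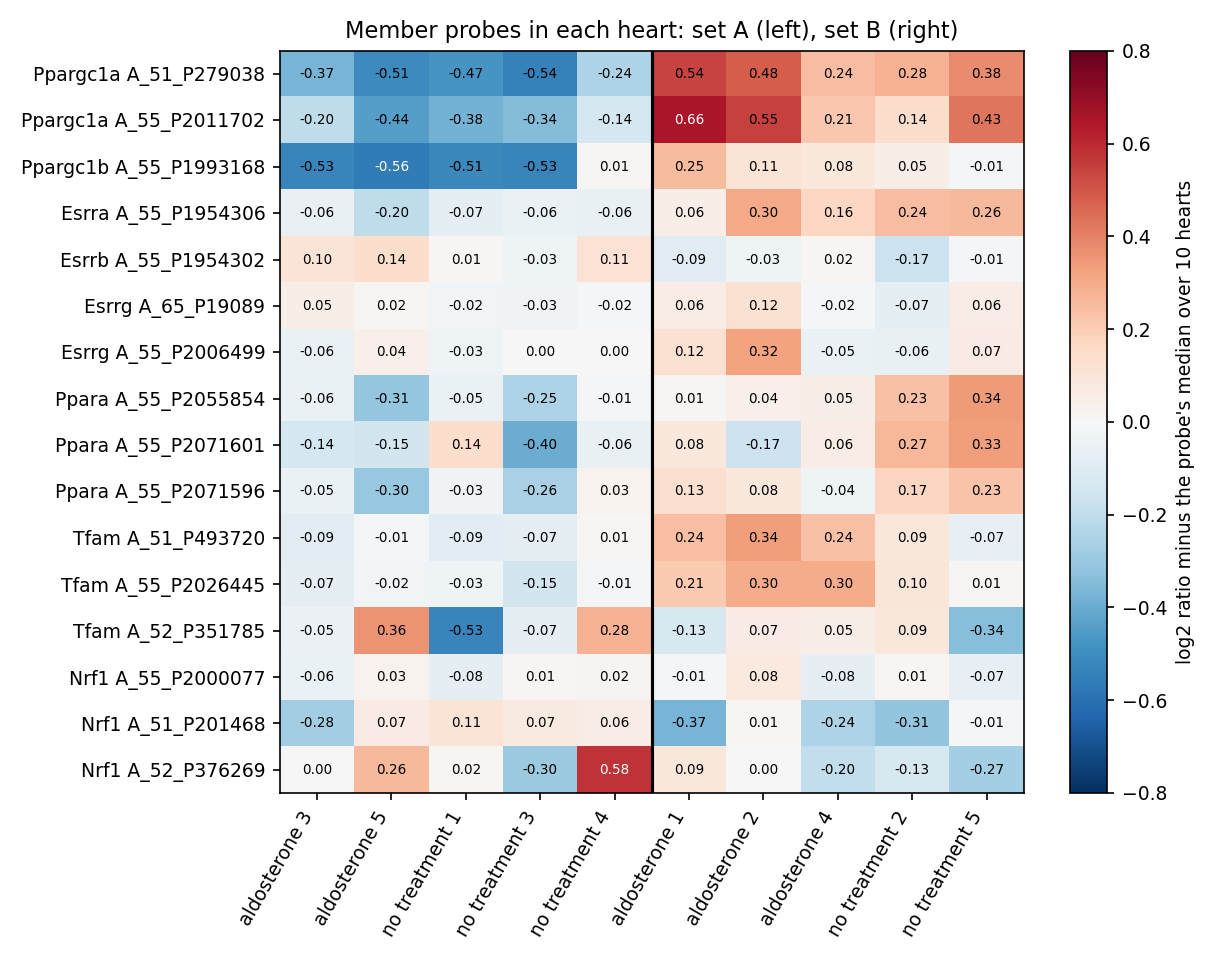
Log2 ratio minus the probe's median over 10 hearts, in the value table, for the 16 member probes (down) in each heart (across), set A left of the line and set B right of it. Both Ppargc1a probes are below their median in every heart of set A and above it in every heart of set B, and no treatment 4 stands with set B for Ppargc1b.

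Within a set the treatment can be looked at with 2 or 3 hearts a group, which allows no call. In set B the aldosterone and no treatment hearts did not overlap for 6 member probes in the value table. Ppargc1b and Tfam probes A_51_P493720 and A_55_P2026445 were higher with aldosterone (3 of 16, beside 13.2% of all probes), and the 3 Ppara probes were lower (3 of 16, beside 11.7%). The difference of the medians, aldosterone minus no treatment, was 0.23 and 0.24 for those Tfam probes and -0.24, -0.24 and -0.11 for the Ppara probes. In set A 1 member probe was higher (Esrrg A_65_P19089, beside 11.1%) and 1 lower (Ppargc1b, beside 10.5%), so Ppargc1b had opposite signs in the 2 sets, at -0.031 in set A and 0.085 in set B. The scanner values had 7 higher and 2 lower in set B (beside 19.5% and 17.3%) and 1 higher and 2 lower in set A (beside 12.0% and 8.81%). For Ppargc1a probe A_51_P279038 the difference was 0.034 in set A and 0.15 in set B in the value table, both with overlap. In the scanner values of set B both Ppargc1a probes were higher with aldosterone without overlap, by 0.16 and 0.32.

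The genes whose profiles over the 10 hearts lay closest to Ppargc1a were Arhgap20, Pygb, Epdr1, Gmnn and Ablim1, with root mean square differences of the centred profiles from 0.110 to 0.131, against a median of 0.455 over all genes. Pygb encodes the brain form of glycogen phosphorylase and Gmnn the replication inhibitor geminin. Pygb had 0.93 to 1.17 in set A and 1.91 to 2.05 in set B, and Gmnn 2.30 to 2.76 in set A and 3.29 to 3.56 in set B. The closest to Ppargc1b were Ttc21a (0.082), P2ry1 (0.116) and Mfn2 (0.131). Mfn2, which fuses mitochondria, is itself a known target of PGC-1 and the oestrogen-related receptors. Esrra was closest to Zfp108, Tnfsf15 and Rarb (0.056 to 0.070), Ppara to Ahnak, Chic1 and Ephb3 (0.056 to 0.068), and Tfam to Mtpap, Metrnl and Tstd3 (0.053 to 0.061). MTPAP adds poly(A) tails to mitochondrial RNA. Esrrb was closest to Pecr, Fam98b and Mrpl10, Esrrg to Usp7, Smu1 and Cfdp1, and Nrf1 to Zswim8, Hcfc1 and Tars, all with little spread over the hearts. All these points share the same 10 arrays and the same reference.

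Partners and regulators of PGC-1 were measured for 25 of 25 genes, and 0 passed the test with aldosterone in either source, with 0 at an unadjusted p under 0.05. Their median difference in the value table was 0.0070, beside 0.0026 over 15260 genes. Pprc1, the third member of the coactivator family, differed by 0.040 (SE 0.12), with means of -0.17 ± 0.20 in aldosterone hearts and -0.21 ± 0.19 in no treatment hearts (SD, n = 5 each). Perm1, a muscle regulator induced by PGC-1α, had 3.07 ± 0.086 in aldosterone hearts and 3.03 ± 0.077 in no treatment hearts. The corepressor gene Nrip1 differed by 0.0070 (SE 0.092) and Prkaa2, a catalytic subunit of the energy sensor AMPK, by 0.0083 (SE 0.061). Sirt1, the deacetylase that activates PGC-1α, differed by -0.089 (SE 0.054; limma unadjusted p = 0.128), and Lpin1, which amplifies PGC-1α with PPARα, by 0.13 (SE 0.11). Between the sets, 1 of the 25 genes was lower in set A without overlap, or 4.0%, beside 5.04% of all genes, and 1 was higher, or 4.0%, beside 8.45%. The lower one was Sirt3, for a mitochondrial deacetylase (0.15 to 0.51 in set A, 0.56 to 0.78 in set B). The higher one was the AMPK subunit gene Prkaa1 (0.016 to 0.27 in set A, -0.29 to -0.088 in set B). These 2 were singled out for their lack of overlap.

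Other receptors and respiratory factors that work with PGC-1 were measured for 13 of 13 genes, with 0 passing in either source and 1 at an unadjusted p under 0.05 in the value table. Ppard, for the PPAR isoform that also drives fatty acid use, differed by -0.050 (SE 0.074), and Pparg, for the isoform of fat cells, by 0.13 (SE 0.093). Between the sets 1 of the 13 genes was higher in set A without overlap, or 7.69%, and 1 lower, or 7.69%, beside 8.45% and 5.04% of all genes. The higher one was Ppard, at 1.07 to 1.21 in set A and 0.89 to 1.04 in set B. The lower one was Pparg, at 0.70 to 0.878 in set A and 0.884 to 1.17 in set B, which are barely apart. Rxrg, a dimer partner of the PPARs, differed by -0.044 (SE 0.079), Gabpa, for the DNA-binding subunit of GABP, by 0.065 (SE 0.073), and Klf15, a factor of cardiac lipid use, by -0.0075 (SE 0.12). The sets overlapped for these 3.

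Genes of mitochondrial DNA replication and transcription, where Tfam acts, were measured for 13 of 13, with 0 passing and 2 at an unadjusted p under 0.05 in each source. No gene of this list was apart between the sets. Tfb2m, for the transcription factor that opens mitochondrial promoters, had 1.83 ± 0.062 in aldosterone hearts and 1.74 ± 0.081 in no treatment hearts (SD, n = 5 each). Polrmt, for the mitochondrial RNA polymerase, had 0.84 ± 0.092 in aldosterone hearts and 0.85 ± 0.095 in no treatment hearts.

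Known target genes of PPARα and the oestrogen-related receptors were measured for 35 of 35. With aldosterone 0 passed in either source, and 2 had an unadjusted p under 0.05 in each. Cpt1b, the muscle gate for fatty acids into mitochondria, differed by 0.085 (SE 0.10), and Acadm, of medium-chain fatty acid oxidation, by 0.077 (SE 0.090). Pdk4, which blocks glucose oxidation and responds to fasting, had 0.43, 1.30, -0.45, 1.19 and 0.42 in aldosterone hearts 1 to 5, against 0.69, 1.22, -0.31, 0.080 and -0.22 in no treatment hearts 1 to 5. Its spread within each group, 0.71 and 0.65 (SD), exceeded the difference of 0.29 (SE 0.39). Ucp3, an inner membrane carrier, differed by -0.26 (SE 0.27), Angptl4, an inhibitor of lipoprotein lipase, by 0.036 (SE 0.35), and Mfn2 by 0.081 (SE 0.17).

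Between the sets, 5 of the 35 target genes were lower in set A without overlap, or 14.3%, beside 5.04% of 15260 genes, and 1 was higher, or 2.86%, beside 8.45%. Cpt1b had 1.76 to 1.93 in set A and 1.98 to 2.24 in set B, and Mfn2 1.21 to 1.63 in set A and 1.76 to 1.96 in set B. The other 3 lower genes, named for their lack of overlap, were Mlycd, which degrades malonyl-CoA (0.29 to 0.73 in set A, 0.87 to 1.25 in set B), Hadha, of long-chain oxidation (1.34 to 1.65 in set A, 1.78 to 2.05 in set B), and Acadl (2.12 to 2.24 in set A, 2.25 to 2.74 in set B). Fabp3, the heart fatty acid binding protein gene, was the higher one (1.73 to 2.22 in set A, 1.41 to 1.68 in set B). Acadm, Pdk4, Ucp3 and Angptl4 overlapped, and Pdk4 and Angptl4 were lowest in aldosterone 3 and no treatment 3. The median over the 35 genes, set A minus set B, was -0.18 in the value table, beside -0.0024 over all genes. The lists were compared between the sets in the value table alone, so how far this depends on the normalization was not tested.

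**Figure D4:**
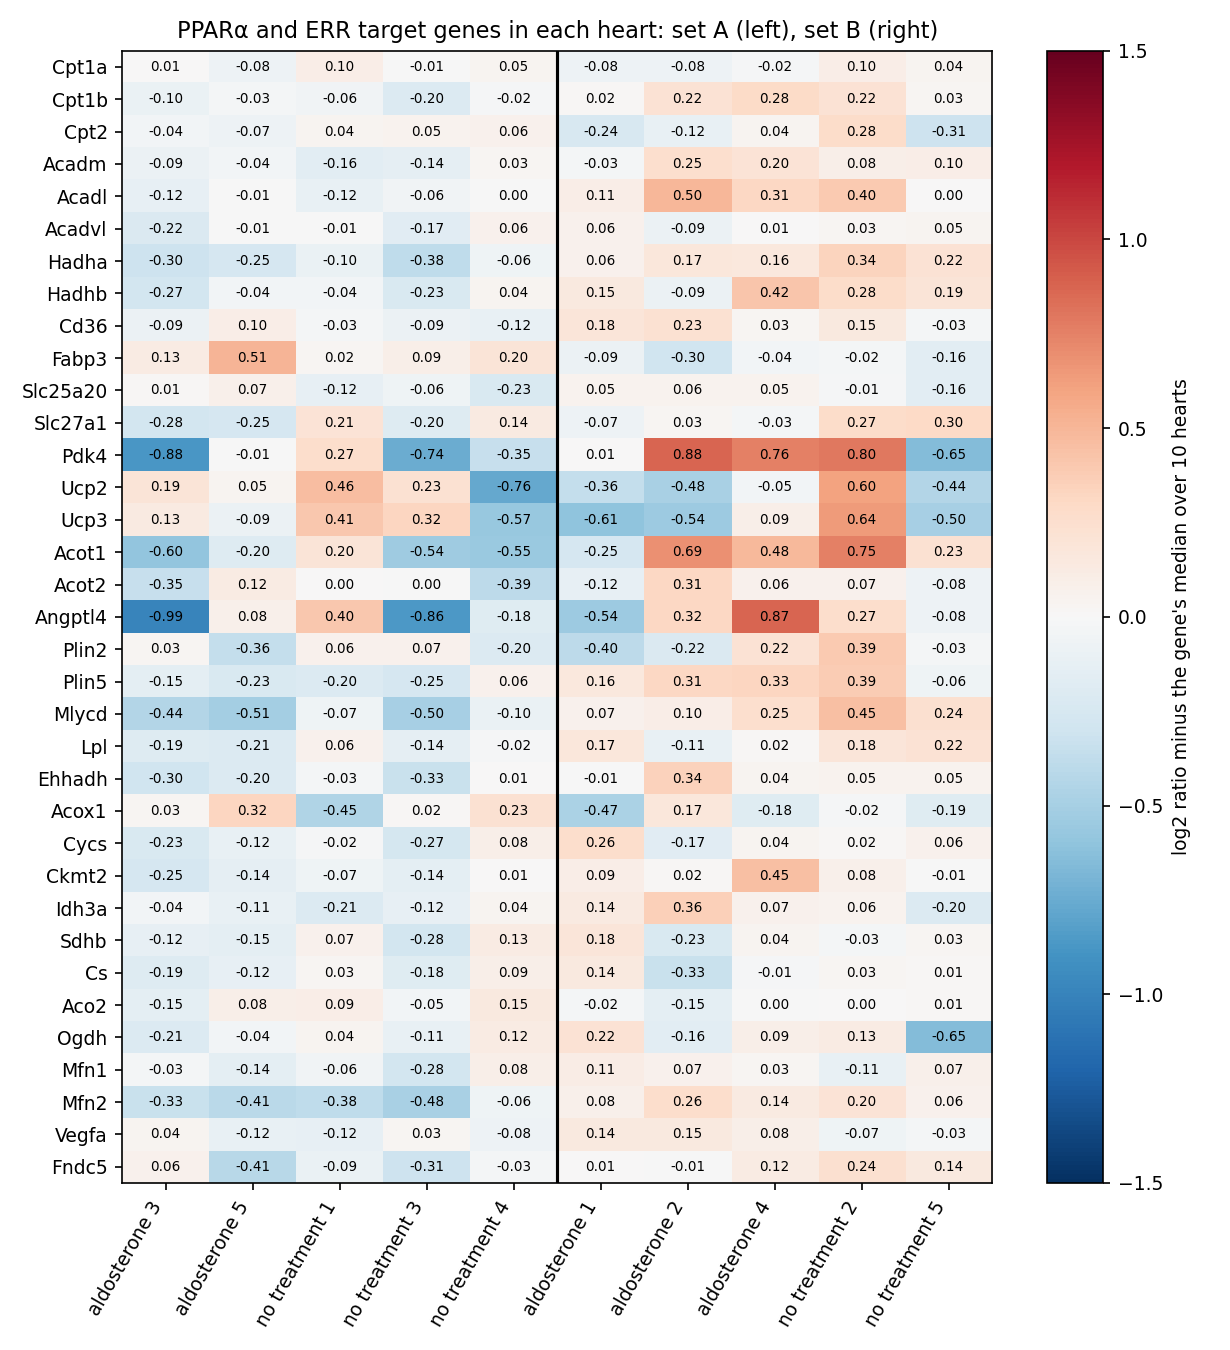
Log2 ratio minus the gene's median over 10 hearts, in the value table, for 35 target genes of PPARα and the oestrogen-related receptors (down) in each heart (across), set A left of the line and set B right of it. Cpt1b, Mlycd and Mfn2 are below their median in every heart of set A, and Pdk4, Angptl4 and Ucp3 vary within both sets.

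Markers of other cells were read beside these values. The mean of the 8 cardiomyocyte markers was 1.23 to 1.54 in set A and 1.51 to 1.69 in set B, with Ryr2 and Pln lower in set A without overlap and the other 6 overlapping. The macrophage markers were at -1.89 to -1.29 in set A (median -1.56) and -1.32 to -0.86 in set B (median -0.91), and overlapped narrowly. The fibroblast markers were at 0.40 to 1.22 in set A (median 0.83) and 0.71 to 1.43 in set B (median 1.09), and overlapped more widely. The endothelial, smooth muscle, lymphocyte, red blood cell and white adipocyte markers overlapped too. Of 6, 8, 8, 7, 7, 4 and 7 markers measured in these lists, only Rgs5 (pericytes) and Mrc1 (macrophages) were apart between the sets, both lower in set A. Over all 15260 genes, 5.04% were lower in set A without overlap and 8.45% higher. Brown fat expresses PGC-1α strongly, and its list, by the 4 of 6 markers measured, was 1.43 to 1.66 in set A and 1.58 to 1.76 in set B. Of its defining markers, Ucp1 was well above background on 1 array and Elovl3 on 0. By treatment, in the value table, all 8 fibroblast markers had a higher mean with aldosterone, and the list was at 0.78 to 1.43 in aldosterone hearts (median 1.21) and 0.40 to 1.17 in no treatment hearts (median 0.71). The means of all 6 macrophage markers were higher too (-1.34 to -0.86 in aldosterone hearts, -1.89 to -0.91 in no treatment hearts), as were those of all 4 red blood cell markers (-2.19 to -1.72 in aldosterone hearts, -3.16 to -2.22 in no treatment hearts, without overlap). Of the white adipocyte markers 1 of 7 was higher (-2.44 to -1.16 in aldosterone hearts, -1.39 to -0.57 in no treatment hearts). Higher means were also seen for 1 of 7 lymphocyte, 2 of 8 endothelial, 4 of 8 cardiomyocyte, 5 of 7 smooth muscle and 2 of 4 brown fat markers. Over all genes, 7771 of 15260 had a higher mean with aldosterone. No marker passed the test with aldosterone in either source. The part of cell makeup in the values of the 8 genes was not tested.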

How the data were processed

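RNA from ventricles of 5 aldosterone-treated and 5 untreated male mice was measured on 2-colour arrays, per the labels. Spot intensity for 9 arrays was deposited as scanner output of Agilent Feature Extraction, version 10.7.3.1, as the submitters' processing notes and the file headers state. The log10 ratio column (Cy5 over Cy3) that the software wrote, per the file headers, was turned into log2 for an alternative. For all 10 hearts the authors also deposited a table with 1 log2 ratio for each probe. On the 9 arrays it matched the software's ratio averaged per probe for most probes (Pearson 0.996 to 1.00, with 82.7% to 86.6% of probes within 0.001). Scale and direction are therefore known, and the reason for the remaining differences is not. The deposited flags, such as well above background, are yes or no.

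Median signals stood in for the planned signal columns, and RefSeq accessions for gene symbols. The signals were corrected with normexp (offset 50; R 4.3.3, limma 3.58.1), after any local background over 20 units away from its array's median had been set to that median. Loess within each array gave control spots weight 0. The offset draws ratios of dim probes toward 0. For the dim Tfam probe A_52_P351785 the median of set A was 0.36 in the scanner values and 1.44 in the value table. A bright probe could be lower too, as Ppargc1a probe A_51_P279038 had 0.098 in the scanner values and 0.35 in the value table. The dim Nrf1 probe A_51_P201468 was higher in aldosterone 1, at -0.022 in the scanner values and -0.098 in the value table. What sets the levels of the sources apart was not tested. Control spots and 1667 outlier spots were left out, and spots of 1 probe averaged. RefSeq records of GRCm38.p6 named 26581 of 39429 probes by accession. The fit was limma per probe, without covariates, in each source, with p-values adjusted over all 26914 probes tested. Lists used 1 probe a gene, that of highest mean signal. Of the lists, 2 genes are not reported here and were left out of their counts. The fits were tested on simulated data.

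The members, lists, named genes and pattern rule were chosen with earlier results of these data known. Named were every member, 19 listed genes whatever they showed, and the genes nearest in profile (5 for Ppargc1a, 3 for each other member). The main fits did not pair the hearts by replicate number. The correlations of same-numbered deviations were 0.0063, 0.15, 0.27, -0.14 and -0.21. Some same-numbered hearts share a set and others do not, so these correlations cannot show whether hearts were paired. Alternatives changed background correction, offset, normalization, filter, slide, pairing and the hearts included. The reference was the denominator only, so dye and RNA source cannot be told apart in a level.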

Additional observations from a re-analysis of the deposited data

Results flagged for a closer look

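Of 64 groups of member probe values looked at, 1 had a heart far from the others. Ppara probe A_55_P2071601 was at 0.34 in aldosterone 1 in the scanner values (0.34455), with the other 3 aldosterone hearts between 0.12 and 0.14. Chance sets such a heart apart in about 1 in 20 groups. In the value table aldosterone 1 had 0.63 and aldosterone 4, which has no scanner file here, 0.61.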

How the results depend on the processing

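No member probe was called under any alternative in either source. Over all probes the scanner values gave 0 calls, and 8 with Agilent's processed ratios, 2 with a replicate block, 35 in the value table of 10 hearts and 0 to 12 with 1 heart left out (12 without no treatment 3 and 12 without no treatment 5, 1 without aldosterone 1, 2 without no treatment 4). The value table gave 35, and 10 with no filter on dim probes, 0 with a replicate block (2036 probes at an unadjusted p under 0.05) and 2 to 57 with 1 heart left out. It gave 57 without no treatment 5 and 2, 3, 5, 5 and 15 without aldosterone 3, 2, 1, 5 and 4, and 7, 4 and 6 without no treatment 1, 2 and 4. The replicate block changed no call of a member probe.

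Signs of small uncalled differences turned in 30 of 328 scanner values and 14 of 208 of the value table. Ppara probe A_55_P2071596 was 0.0020 without background correction, 0.0011 with scale normalization and 0.012 with slide as a block. Nrf1 probe A_52_P376269 was 0.012 without background correction, 0.11 by Agilent's ratios and 0.050 in the value table. Nrf1 probe A_55_P2000077 was 0.00011 without background correction, 0.028 by Agilent's ratios, 0.016 with a replicate block and 0.011 in the value table. With 1 heart left out, scanner values ranged from -0.012 to 0.34 for Ppargc1a A_51_P279038, from -0.10 to 0.15 for Ppargc1b, from -0.11 to 0.050 for Esrra, from -0.12 to 0.042 for Ppara A_55_P2055854, from -0.056 to 0.071 for Ppara A_55_P2071596, from -0.059 to 0.016 for Nrf1 A_55_P2000077 and from -0.097 to 0.023 for Nrf1 A_52_P376269. In the value table they ranged from -0.028 to 0.18 for Ppargc1b, from -0.075 to 0.051 for Esrra, from -0.14 to 0.0033 for Ppara A_55_P2071596, from -0.011 to 0.028 for Nrf1 A_55_P2000077 and from -0.019 to 0.20 for Nrf1 A_52_P376269.

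The alternatives for the sets of hearts were chosen after seeing the data. Member probes without overlap numbered 7 in the scanner values, 2 with median centring, 6 or 7 under 4 other settings and 7 to 9 with 1 heart left out. In the value table they numbered 5, 4 with each column centred on its median and 5 to 7 with 1 heart left out. The shares of all probes are not given for these alternatives. Leaving out a heart makes a lack of overlap easier for any probe, so the counts do not show how stable the difference is. Of the 16 probes, 13 had a lower median in set A in the scanner values and 9 with median centring, which moved the median of all probes, set A minus set B, to 0.056 against -0.022. Ppargc1a A_51_P279038 was then at -0.60. The cause was not tested. Dim spots limit Tfam A_52_P351785 and Nrf1 A_51_P201468 and A_52_P376269.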
